A study of Mus musculus with 8 samples.

Results

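Broad acetylated domains were long stretches of the genome in which peaks of histone H3 acetylated at lysine 27 (H3K27ac) were found in every breast tumor profiled. H3K27ac was measured by chromatin immunoprecipitation sequencing in 4 mouse tumors on the Balb/c background, 2 from control mice of genotype PyMT;Rag1KO and 2 from test mice of genotype K14-TSLPtg;PyMT;Rag1KO. All 4 mice had been injected with wild-type CD4+ T cells when 4 weeks old. The tumors were numbered control 1, control 2, test 1 and test 2, and the numbers only name a tumor. The PyMT oncogene is driven by the MMTV promoter in mammary epithelium, the TSLP transgene by the keratin 14 promoter of skin and basal epithelium, and Rag1KO hosts make no T or B cells of their own. The labels give no histological grade or cell make-up for a single tumor, and the titles call the test samples cysts.

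The domains were chosen by measured values. Overlapping or touching peak intervals of the 4 tumors were merged to give union regions. A union region on the autosomes was a domain when it was at least 8000 bp wide and was overlapped by at least 1 bp of peak in every tumor. Of 89238 union regions, 34078 were shared by all 4 tumors and 591 of these were domains. They were 0.662% of the union regions and held 7.09 of 99.1 Mb, or 7.15% of the union bases. Another 2 regions were wide enough but lacked a peak in test 2, 1 near Tbx15 (14.2 kb) and 1 near Tprg (8.31 kb). Width and presence in every tumor are therefore the rule itself and are given as descriptions.

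Acetylation of lysine 27 is placed by the coactivators p300 and CBP on nucleosomes next to active promoters and enhancers. Most acetylated regions are short, but clusters of active enhancers and the bodies of highly transcribed genes can carry the mark without interruption over long distances. In mammary epithelium such stretches are known at genes that set luminal identity, such as Gata3.

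The widest domain holds a microRNA cluster, and 23 of 919 autosomal RefSeq microRNA hairpins lay inside a domain (2.5% of hairpins), in 17 domains. MicroRNA domains were picked out after their values had been seen. On the chromosomes searched, 35 mature microRNAs of the RefSeq table (GRCm38.p6) lay in domains, and for 32 of them the mature sequence lay inside a peak in all 4 tumors. The sequences below are 3 of the 6 in the widest domain and those of well-known microRNAs in other domains, with the seed (bases 2 to 8, the part that pairs with target RNAs) in capitals.

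miR-23b-5p: gGGUUCCUggcaugcugauuu
miR-27b-3p: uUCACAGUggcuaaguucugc
miR-24-3p: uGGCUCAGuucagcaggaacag
miR-21a-5p: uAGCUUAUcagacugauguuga
miR-9-5p: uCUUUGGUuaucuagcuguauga
let-7c-5p: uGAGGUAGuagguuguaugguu
let-7b-5p: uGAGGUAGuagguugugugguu
miR-140-3p: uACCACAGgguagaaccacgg
miR-210-3p: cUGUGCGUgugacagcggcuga

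let-7c-5p and let-7b-5p share the seed GAGGUAG, and their 3p arms share the seed UAUACAA. These were the only 2 seeds held by more than 1 of the 35 mature microRNAs, which had 33 distinct seeds. The miR-140-3p sequence lay inside a peak in 3 tumors, with no peak over it in control 2.

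Promoters are shown for Gata3 and Srebf1, among the 20 widest domains, and for Tnfrsf1b and Slmap, among the 5 largest differences in each direction where the groups did not overlap. Each runs from 250 bases before to 50 after the start site on GRCm38.p6, and capitals mark matches to any of the 6 motifs searched.

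Gata3, chr2:9878551-9878850, minus strand: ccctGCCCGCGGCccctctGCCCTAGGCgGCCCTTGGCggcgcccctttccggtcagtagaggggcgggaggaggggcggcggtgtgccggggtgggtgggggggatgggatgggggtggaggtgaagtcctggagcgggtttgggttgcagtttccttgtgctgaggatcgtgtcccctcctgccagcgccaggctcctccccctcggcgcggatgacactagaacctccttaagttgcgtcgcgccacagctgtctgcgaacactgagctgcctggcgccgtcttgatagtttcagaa
Srebf1, chr11:60210422-60210721, minus strand: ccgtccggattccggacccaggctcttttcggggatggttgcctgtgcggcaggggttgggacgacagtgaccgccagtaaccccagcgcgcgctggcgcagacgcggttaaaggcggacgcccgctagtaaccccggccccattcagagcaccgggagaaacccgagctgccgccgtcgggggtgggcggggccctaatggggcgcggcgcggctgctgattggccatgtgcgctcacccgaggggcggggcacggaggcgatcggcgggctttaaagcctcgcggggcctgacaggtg
Tnfrsf1b, chr4:145246821-145247120, minus strand: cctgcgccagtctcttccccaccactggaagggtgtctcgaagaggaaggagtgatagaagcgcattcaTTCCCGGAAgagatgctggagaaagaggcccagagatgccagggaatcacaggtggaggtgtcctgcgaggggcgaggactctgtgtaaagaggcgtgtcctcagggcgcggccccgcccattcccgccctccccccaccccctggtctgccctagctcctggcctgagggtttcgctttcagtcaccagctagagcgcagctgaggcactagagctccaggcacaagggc
Slmap, chr14:26534575-26534874, minus strand: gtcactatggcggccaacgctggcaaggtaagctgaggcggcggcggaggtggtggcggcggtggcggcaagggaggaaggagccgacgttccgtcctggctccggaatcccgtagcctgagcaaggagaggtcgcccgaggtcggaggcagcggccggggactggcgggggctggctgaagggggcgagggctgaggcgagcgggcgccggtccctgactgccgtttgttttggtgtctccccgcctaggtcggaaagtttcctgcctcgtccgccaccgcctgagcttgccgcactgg

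The Gata3 promoter has 3 matches to the AP-2 motif GCCNNNGGC, and the Tnfrsf1b promoter has 1 match to the STAT motif TTCNNNGAA. The Gata3, Srebf1 and Slmap windows lay entirely inside peaks in every tumor. The Tnfrsf1b window was covered for 27.3% (control 1), 19% (control 2), 17% (test 1) and 5.33% (test 2) of its bases, and the domain ends just past the start site.

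The width of the domains fell off steeply from the threshold. The median was 10098 bp and the quartiles were 8880 and 12952 bp, up to a width of 69239 bp. There were 301 domains of at least 10000 bp, 80 of at least 15000 bp, 36 of at least 20000 bp and 13 of at least 30000 bp. The narrowest members were in Orai1 (8006 bp), near Trib1 (8012 bp) and at Jmy (8027 bp). The regions just outside were at Rassf1 (7993 bp), Etv6 (7992 bp) and Tex2 (7989 bp).

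**Figure D1:**
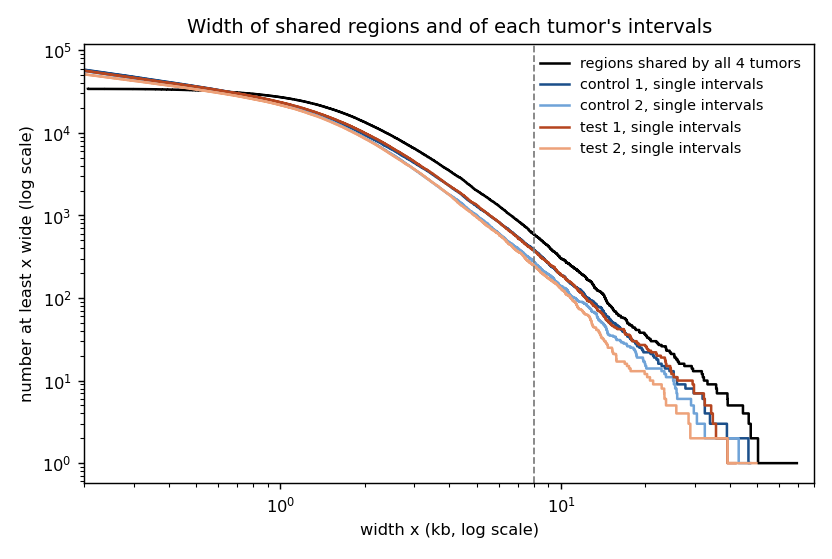
Number of regions at least as wide as the value on the x axis (kb), both axes on a log scale, for the regions shared by all 4 tumors (black) and for the single intervals of each tumor (colours). The dashed line marks 8000 bp, which 591 shared regions and between 248 and 384 single intervals per tumor reached.

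A domain was rarely a single unbroken interval in every tumor. Intervals of at least 8000 bp numbered 384 (control 1), 278 (control 2), 375 (test 1) and 248 (test 2). All 4 tumors had such an interval in 147 domains, 1 to 3 tumors had one in 381, and no tumor had one in 63, where shorter intervals of different tumors joined. At least 8000 bp was covered in all 4 tumors in 308 domains, and 46 domains were a single interval in every tumor. Most bases were nonetheless common: 74.9% of domain bases were covered in all 4 tumors, 12.8% in 3, 7.05% in 2 and 5.32% in 1. In the shared regions 4 to 8 kb wide, 65.3% of bases were covered in all 4 tumors. Since width and presence chose the domains, these shares are descriptions.

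The tumors differed in how fully they covered the domains. The share of domain bases inside peaks was 93.4% (control 1), 88.1% (control 2), 93.5% (test 1) and 82.1% (test 2). Control 1 and test 1 were nearly alike, and test 2 was the lowest. Test 2 was the least covered tumor in 330 domains, against 155 for control 2, 61 for control 1 and 45 for test 1. It lay more than 20 percentage points below every other tumor in 81 domains, which happened in 7 domains for control 2, 2 for test 1 and 0 for control 1. Test 2 also lay more than 20 points above every other tumor in 10 domains, compared with 4 for control 1, 4 for control 2 and 2 for test 1. Test 2 had the fewest intervals on the autosomes, 58328 against 64438 to 68404 in the other tumors. Read depth is unknown from these lists, and its part in these differences was not tested.

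The covered share of the domains was compared between control tumors and test tumors, which carried the TSLP transgene. Coverage came from the same intervals that chose the domains, so the comparison describes the chosen domains only. Control tumors covered 90.8% ± 3.76 (SD, n = 2) of the domain bases, while 87.8% ± 8.10 (SD, n = 2) were covered in test tumors, and test minus control was -2.96 percentage points (exact permutation test, two-sided p = 1). With 2 tumors per group the smallest p this test can give is 0.333. The difference was 2.46 points without test 2 and 0.362 points without control 1, so its direction rested on single tumors. The number of intervals of at least 8000 bp gave a test over control ratio of 0.941 (exact permutation test, two-sided p = 0.667, n = 2 per group). This ratio was 1.13 without test 2 and 1.12 without control 1. Within the domains, the pair of tumors with the most similar coverage was control 1 with test 1, with a Jaccard index (shared bases over bases covered in either) of 0.914. The control pair had 0.886, the test pair 0.821, and the lowest pair, control 1 with test 2, 0.817.

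The 20 widest domains included those of Ehf, Gata3, Actn4, Myh9 and Srebf1. A domain is called here by the protein-coding genes whose transcription start site (TSS) lies in it, or otherwise by the nearest such TSS, which does not show that it acts on that gene. Among the 20 widest, 10 held a protein-coding TSS. The median share of a domain covered in all 4 tumors was 87.5%, against 77.0% over all 591. Test 2 was the lowest tumor in 16 of the 20.

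The widest domain, chr13:63239151-63308389, was 69.2 kb wide and lay over the gene 2010111I01Rik and part of Fancc. It contains the hairpins of miR-23b, miR-27b, miR-3074-1 and miR-24-1, and the nearest protein-coding TSS, of Fancc, lies 188889 bp away, although shorter protein-coding transcripts start inside. Its covered share was 98.2% (control 1), 98.7% (control 2), 98.3% (test 1) and 90.7% (test 2). The first 3 tumors were within 1 point of each other, and test 2 was lower.

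Domains of transcription factors followed. The domain of Ehf, an epithelial factor of the ETS family, was 39.3 kb wide (chr2:103265525-103304781) and was covered for 99.4% and 94.6% among control tumors against 99.8% and 99.9% among test tumors. Both test tumors lay above both control tumors there, by 2.86 points on average. Gata3, required for luminal differentiation, had a domain of 26.04 kb (chr2:9864137-9890176) covered for 99.5%, 99.6%, 99.9% and 91.4% in control 1, control 2, test 1 and test 2. Trps1, a repressor of the GATA family, had one of 31.7 kb (chr15:50862879-50894624) covered for 97.8%, 93.6%, 99.2% and 89.7% in the same order. Srebf1, a master regulator of lipid synthesis, had one of 39.2 kb (chr11:60195431-60234606) that also held the hairpins of miR-6921 and miR-6922, covered for 96.6%, 95.3%, 98.3% and 81.9%. The groups overlapped in the domains of Gata3, Trps1 and Srebf1, with test 2 the lowest in each. A domain of 35.9 kb inside Nfix, at the TSS of G430095P16Rik, was covered for 70.4% in test 2 and 93.5% to 99.3% in the others. A second Nfix domain of 25.3 kb began 652 bp from its annotated TSS and held no gene TSS.

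Domains of cytoskeletal genes were among the widest. Actn4, an actin crosslinker, had the second widest domain (50.4 kb, chr7:28913668-28964022), covered for 95.0%, 95.1%, 94.8% and 98.6% in control 1, control 2, test 1 and test 2. This was the only one of the 5 widest domains in which test 2 was highest. Myh9, the heavy chain of nonmuscle myosin IIA, had one of 35.7 kb (chr15:77808832-77844544) covered for 95.9%, 97.9%, 99.0% and 88.1%. Pmepa1, a TGF-beta-induced gene whose product restrains TGF-beta signalling, had a domain of 47.4 kb (chr2:173228799-173276225) that ended 308 bp short of its TSS and was covered for 99.1% in each of control 1, control 2 and test 1 and 87.9% in test 2. Only test 2 stood apart there.

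Several of the widest domains lay far from a protein-coding TSS. A domain of 46.6 kb overlapping Nhsl1 (chr10:18468247-18514893) had its nearest TSS, of Hebp2, 31183 bp away and held no gene TSS of any kind. A domain of 44.5 kb (chr15:85652079-85696577) lay 38406 bp from the TSS of Ppara, a nuclear receptor of fatty acid oxidation, and was covered for 96.4% to 98.9% in every tumor. The neighbouring domain of 13.4 kb holds let-7c-2 and let-7b. A pair of domains, 33.3 and 32.0 kb wide, stood between Tmem189 and Ptpn1 next to Cebpb, which has a domain of its own of 17.98 kb. Others were a 27.5 kb domain in Pde4b, a cAMP phosphodiesterase, 150163 bp from the TSS of Sgip1, and a 25.7 kb domain 506927 bp from the TSS of Tnp1. The domain of miR-21a (25.4 kb, chr11:86569510-86594868) lay in Vmp1 and was covered for 98.4% (control 1), 80.8% (control 2), 89.6% (test 1) and 81.5% (test 2). The rest of the 20 were at Zfp395 (32.3 kb), Chd2 (26.3 kb), Slc39a14 (29.5 kb) and within Abhd2 (29.2 kb). Slc39a14, a metal ion transporter, and Abhd2 stood out for test 2, which covered 58.4% and 58.6% of them against 92.7% or more in every other tumor.

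**Figure D2:**
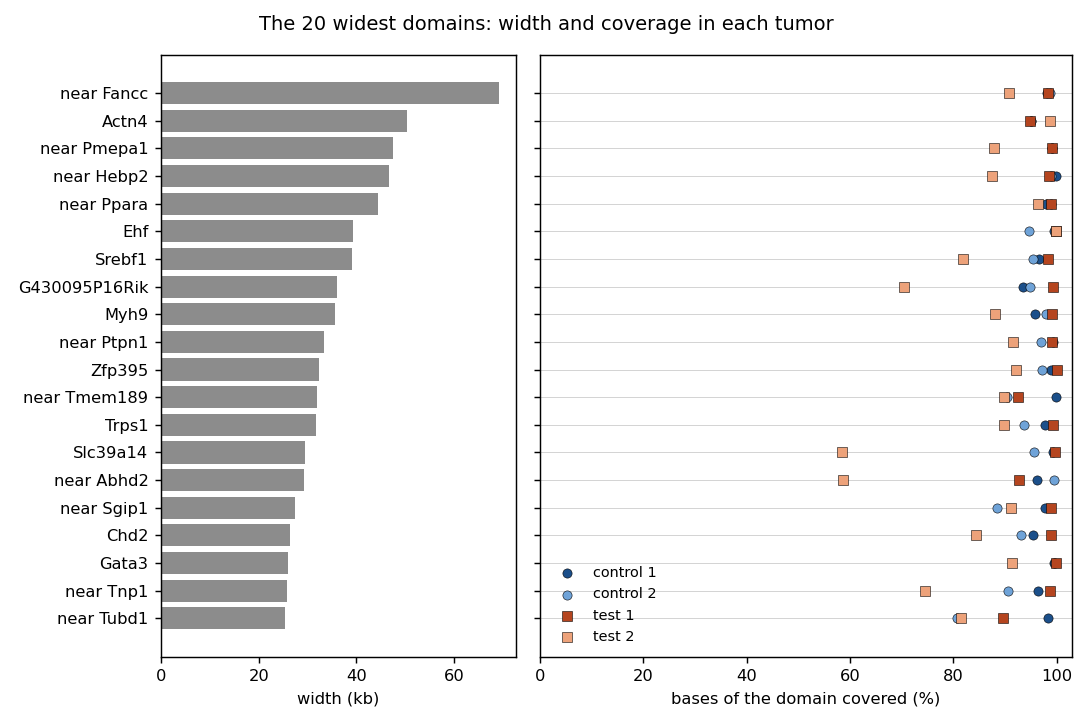
Width (bars, kb) and percent of bases covered by peaks in each tumor (points, circles for control and squares for test) of the 20 widest domains. Test 2 was the lowest tumor in 16 of the 20, with 58.4% at Slc39a14 and 58.6% at Abhd2.

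**Figure D3:**
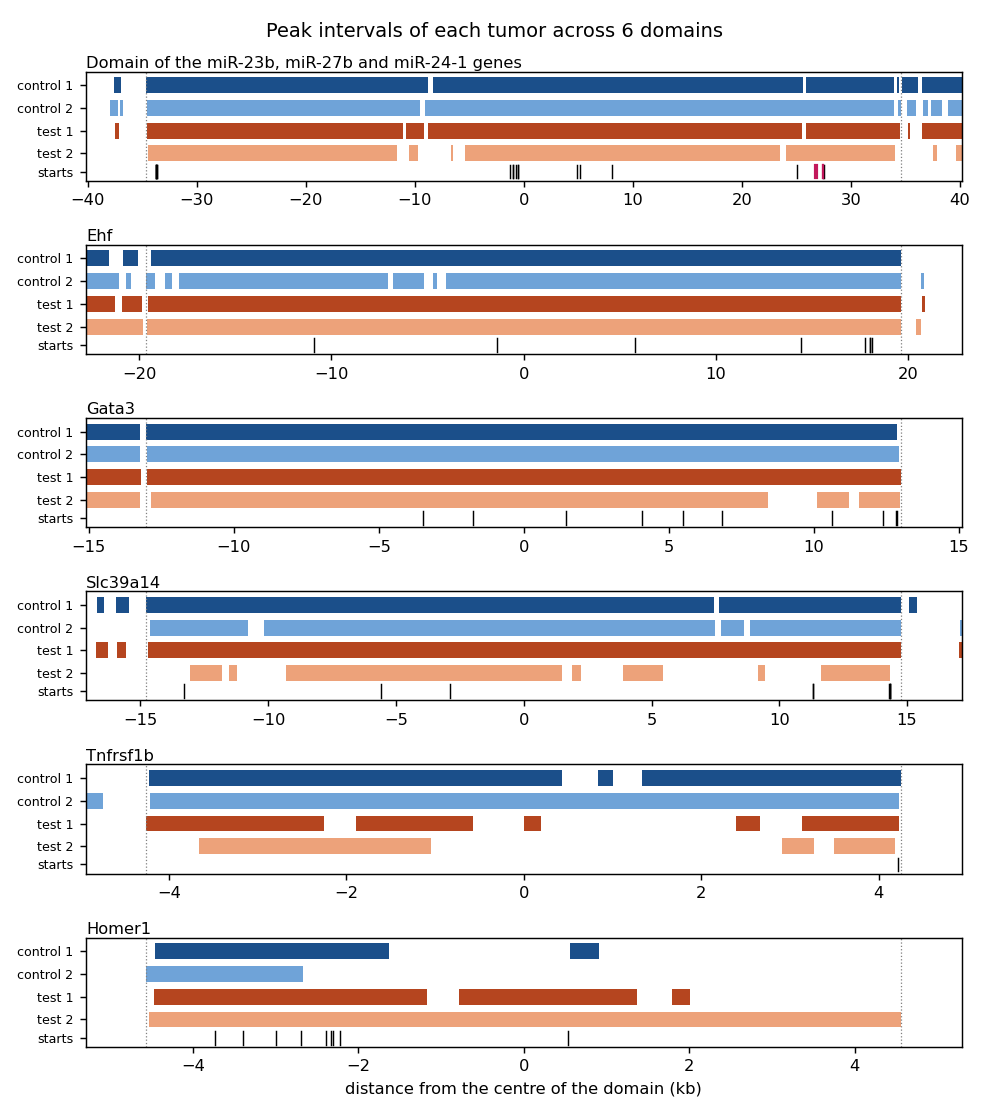
Peak intervals of each tumor (coloured bars) against the distance from the centre of 6 domains (kb), with protein-coding transcript starts as black ticks, microRNA hairpins as pink ticks and dotted lines at the ends of the domain. The Ehf domain was a single interval in 3 tumors and 6 intervals in control 2, the Gata3 domain was a single interval in 3 tumors and 3 intervals in test 2, the Slc39a14 domain was 7 intervals in test 2, and Tnfrsf1b and Homer1 were filled in by the tumors of 1 group more than the other.

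The domains with the largest share covered in all 4 tumors were of moderate width. A domain of 10.8 kb, 68323 bp from the TSS of Zfp36l2, which promotes mRNA decay, had 99.0% of its bases covered in every tumor. One of 12.4 kb in Rbm47, an RNA-binding protein gene, had 98.8%, and that of Tfap2b, which encodes AP-2 beta, had 98.4% of 9.58 kb. The lowest such share was 5.25%, in a 12.7 kb domain in Plekho2 that test 2 covered for 5.25% and the other tumors for 76.6% to 97.3%; it was picked out for this value.

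Protein-coding genes were counted in the domains next. A TSS lay in 231 domains, with 191 holding 1, 36 holding 2, 3 holding 3 and 1 holding 4. In all, 276 of 20807 autosomal protein-coding genes had a TSS inside a domain (1.33% of genes), and 2.95% of the 9366 genes with a TSS in any shared region did. Counting also the gene nearest to each domain without a TSS gave 517 genes, or 2.48%. The most crowded domain held E4f1, Pgp, Bricd5 and Mlst8, the last a subunit of both mTOR complexes, in 10.4 kb. Those with 3 were the Gata3 domain, that of Mvp, Pagr1b and Pagr1a (12.3 kb, covered for 48.8% in test 2 and 84.2% to 91.4% in the others) and that of Rnf167, Slc25a11 and Pfn1 (11.1 kb), the last encoding the actin-binding profilin 1.

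Domains with a single TSS reached mostly into the gene. Of the 191, 85.3% had more bases downstream than upstream of the TSS, with medians of 8445 bp downstream and 1966 bp upstream. In shared regions 4 to 8 kb wide with a single TSS the share was 79.3%, with medians of 3576 and 1383 bp. Introns of protein-coding genes made up 59.7% of domain bases, exons 9.87% and sequence outside these genes 30.4%, against 55.6%, 10.4% and 34.1% in regions 4 to 8 kb wide.

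The remaining 360 domains held no protein-coding TSS by the 5′ end of the gene record. The start of another annotated transcript lay in 109 of them, and 286 of all domains held no TSS of any annotated gene. Of the 360, 217 lay entirely within protein-coding gene bodies and 117 overlapped none. Their median distance to the nearest protein-coding TSS was 32628 bp, with 131 within 20000 bp and 62 beyond 100000 bp. The widest without any TSS, after those in Pmepa1, Nhsl1, Pde4b and Nfix, was a 24.6 kb domain in Ralgds, an activator of Ral GTPases, covered for 65.4% in test 2 and 93.7% to 97.9% in the others. Control 2 and test 2 covered the domains without a TSS less (86.6% and 80.3%) than those with one (90.3% and 84.7%), while control 1 and test 1 covered the classes within 2 points of each other.

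Some genes were the nearest to several domains. Nfib, a nuclear factor I gene of the mammary gland, was nearest to 6 domains, which lay 161477 to 414420 bp from its TSS and summed to 65.1 kb. They overlapped the Nfib gene itself, and the distances are to the 5′ end of its gene record. Pik3r1, the regulatory subunit of phosphoinositide 3-kinase, had 5, with 1 at its TSS and the farthest 234363 bp away. Trps1 had 4, of which 1 held its TSS. Over all domains, 212 had another domain within 50000 bp, and the median distance to the nearest was 214 kb. Counts of domains can therefore hold several from 1 locus.

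Gene lists were then read against the domains, without a test. The lists were chosen with earlier results of these data known, so their shares are descriptions. Of all genes with a TSS in any shared region, 2.95% had one in a domain. Such a TSS was held by 29 of 40 luminal factors, 29 of 34 epithelial, 22 of 30 milk and 24 of 30 AP-1 genes. The same held for 26 of 28 growth, 27 of 29 cytoskeletal and 14 of 35 epithelial-mesenchymal transition genes. Of 40 luminal and mammary transcription factors, 12 had a TSS in a domain (30.0% against 1.33% of all protein-coding genes), and 18 had one inside or were nearest to a domain (45.0% against 2.48%). Besides Ehf, Trps1 and Gata3, Lmo4 had a domain of 20.2 kb covered for 82.0% (control 1), 99.5% (control 2), 86.9% (test 1) and 82.4% (test 2). Cebpb, Tfap2a, Tfap2c, Sox10, Xbp1, Bhlhe40, Id2 and Sox9 completed the 12, with widths of 9.67 to 17.98 kb. The 33 domains inside or nearest to this list had a median test minus control difference of -0.29 points, with both control tumors above both test tumors in 4 and the reverse in 6, against 14.2% and 13.7% of all domains and 13.3% and 19.1% of all shared regions. The median difference was -1.11 points over all domains and 1.29 points over all shared regions, and the counts and medians of the lists that follow are read beside these values.

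Of 34 genes of epithelial junctions, keratins and splicing, 9 had a TSS in a domain (26.5%). Cdh1, which encodes E-cadherin, had the widest, 22.3 kb (chr8:106602562-106624838), covered for 99.6% (control 1), 95.8% (control 2), 96.3% (test 1) and 93.9% (test 2). Prss8, an epithelial serine protease, had one of 14.6 kb covered for 90.5% to 100% in every tumor. Esrp1, a regulator of epithelial splicing, had one of 14.3 kb that test 1 covered for 98.5% and the other tumors for 62.0% to 68.8%. Lama5, the laminin alpha 5 chain, had one of 12.96 kb covered for 91.1% to 99.2%. Of the 12 domains inside or nearest to this list, 4 had both test tumors above both control tumors, 1 had the reverse and the groups overlapped in the others. The 4 were at Spint2, Jup, Cldn3 and a second domain near Esrp1, with test minus control differences of 7.50, 3.01, 5.43 and 14.99 points. The reverse was at Cldn4, with 84.0% and 98.4% among control tumors against 72.1% and 75.1% among test tumors. The median difference over the 12 domains was 4.33 points.

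Of 30 milk and luminal secretory genes, 6 had a TSS in a domain (20%). These were Lcn2, encoding the iron-transport protein lipocalin 2 (14.6 kb), Muc1, a luminal mucin (12.8 kb), Trf, encoding transferrin (11.97 kb), Wfdc18 (11.9 kb), Scd2, a fatty acid desaturase (9.21 kb), and Csn3, encoding kappa-casein (9.19 kb). Both test tumors lay above both control tumors at Lcn2 and Csn3, by 3.73 and 3.39 points. The groups overlapped at the other 4 and in both further domains nearest to genes of this list, so that over the 8 domains 2 had test higher and 0 had control higher, with a median of -0.78 points.

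Of 30 AP-1 and immediate early genes, 8 had a TSS in a domain (26.7%), the widest at Zfp36, an mRNA decay factor (16.4 kb), Junb, an AP-1 subunit (14.2 kb), Fosl2, another AP-1 subunit (12.2 kb), and Ier2 (11.2 kb). All tumors covered at least 83.4% of 7 of the 8, and Klf6 was covered for 74.3% to 97.7%. Over the 15 domains inside or nearest to this list the median was -2.87 points, with control higher in 2 and test higher in 1. Of 28 growth and cell cycle regulators, 6 had a TSS in a domain (21.4%): Cdkn1b, a cyclin-dependent kinase inhibitor (14.8 kb), Fgfr2, a fibroblast growth factor receptor (14.03 kb), Mcl1, an apoptosis inhibitor (13.3 kb), Pik3r1 (13.1 kb), Bcl2l1 and Ccnd3. Over the 16 domains inside or nearest to this list the median was -1.46 points, with both control tumors above both test tumors in 5, the reverse in 1 and overlap in the others. Control was higher at Cdkn1b, Mcl1 and Bcl2l1, with test minus control differences of -7.21, -4.46 and -2.42 points, in a domain near Fgfr1 described with the single-tumor domains, and near Myc. The domain with test higher was 24759 bp from the TSS of Pik3r1 and differed by 13.38 points. The groups overlapped at the TSSs of Pik3r1, Fgfr2 and Ccnd3, where the differences were 11.64, 4.17 and 3.43 points. The domain near Myc, 9.19 kb wide and 216602 bp from its TSS, was covered for 100% and 88.7% among control tumors against 74.9% and 64.3% among test tumors.

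Of 29 cytoskeletal and housekeeping genes, 10 had a TSS in a domain (34.5%), a larger share than in any other list. Besides Actn4, Myh9 and Pfn1 these were Actg1 and Actb, the cytoplasmic actins, Eno1, Ldha and Pkm of glycolysis, Hsp90ab1 and Tubb5. Over the 12 domains inside or nearest to this list the median was -0.43 points, with control higher in 3 and test higher in 0. Of 35 genes of the epithelial-mesenchymal transition, 1 had a TSS in a domain (2.86%), Tpm1, encoding tropomyosin 1, covered for 99.9% and 98.0% among control tumors against 92.8% and 96.7% among test tumors. A second domain, 247853 bp from the TSS of Tpm1, was covered for 100% and 86.9% among control tumors against 91.6% and 62.1% among test tumors, and its groups overlapped. Over these 2 domains the median was -10.39 points, with control higher in 1 and test higher in 0.

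None of the listed markers of other cells lay in a domain. Among 100 markers of myoepithelial, fibroblast, endothelial, myeloid, T, fat, nerve and liver cells in 8 lists, 7 had a TSS in any shared region and 0 had one inside or nearest to a domain, against 1.33% and 2.48% of all protein-coding genes, so 0 of 100 lies near the background. The 10 genes for the receptors of TSLP, IL-4 and related cytokines that could be matched also had 0, with 5 in a shared region. Peaks lay over 30.9% to 34.7% of the windows 10 kb either side of the TSS of the luminal factors, and over 30.7% to 32.8% for the epithelial list. The corresponding range was 2.57% to 6.09% for myoepithelial, 1.06% to 3.86% for fibroblast, 1.06% to 4.85% for endothelial, 0.318% to 2.28% for T cell, 8.92% to 17.1% for macrophage and myeloid, 5.35% to 8.70% for adipocyte, 1.80% to 2.75% for neuronal and 4.39% to 5.11% for hepatocyte markers.

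**Figure D4:**
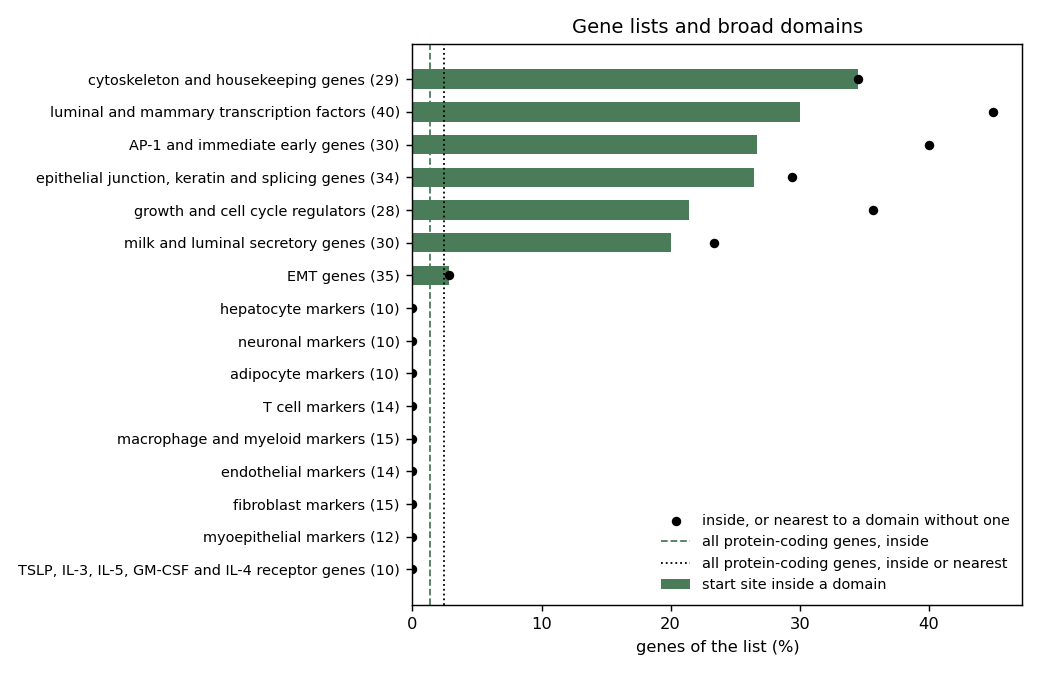
Percent of the genes of each list (number matched in brackets) with a TSS inside a domain (bars) and with a TSS inside or nearest to a domain (points). The lists were chosen with earlier results of these data known, and the shares were not tested. Dashed and dotted lines mark all autosomal protein-coding genes, 1.33% and 2.48%; 6 lists lay between 20% and 34.5%, and the lists of other cell types at 0.

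Per domain, the groups were compared by whether both tumors of 1 group were covered more than both of the other. Both control tumors were higher in 84 domains (14.2%) and both test tumors in 81 (13.7%), and the groups overlapped in 426. Over all 34078 shared regions the shares were 13.3% and 19.1%, and over the 2888 shared regions 4 to 8 kb wide they were 13.4% and 16.2%. The share with control higher was near its background and the share with test higher was below it. Of the domains whose groups did not overlap, 46 with control higher and 33 with test higher differed by at least 10 points between group means. Regions that met both conditions made up 11.5% and 15.9% of all shared regions, and 9.63% and 10.7% of those 4 to 8 kb wide. With a tumor left out both counts rose, since a lone tumor in a group separates more easily. Control and test were then higher in 108 (20.97%) and 175 (33.98%) of 515 domains without control 1. Without control 2 they were higher in 201 (36.15%) and 105 (18.88%) of 556. The counts were 292 (57.37%) and 120 (23.58%) of 509 without test 1, and 107 (19.81%) and 246 (45.56%) of 540 without test 2. Shares with a tumor left out cannot be set against those with all 4 tumors. Which direction was the more frequent therefore differed with the tumor left out.

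The rule itself builds part of such differences into the narrower domains, since intervals of 1 group can carry a region past 8000 bp. In 47 of the 84 domains with control higher, the intervals of the test tumors alone joined into no stretch of 8000 bp, and in 40 of the 81 with test higher the control tumors alone did not. The same held for the test tumors in 88 and for the control tumors in 99 of the 426 domains whose groups overlapped. Without control 1, control 2, test 1 or test 2, the other tumors joined into no stretch of 8000 bp in 79, 37, 84 and 54 of the 591 domains. The 5 domains with the largest difference in each direction, among those whose groups did not overlap, were all of this kind, with a widest stretch of 0.932 to 4.84 kb from the tumors of the lower group, so their differences are descriptions of how the 2 groups made up the width.

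**Figure D5:**
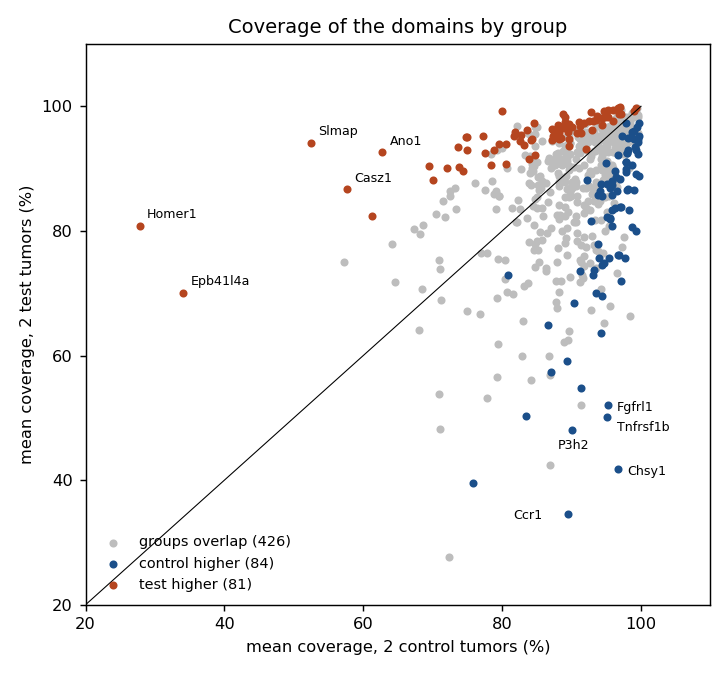
Mean percent of bases covered in the 2 test tumors against the 2 control tumors for each of the 591 domains, with the line of equal coverage. Both control tumors were higher in 84 domains (blue), both test tumors in 81 (red) and the groups overlapped in 426 (grey); the 10 labelled domains are the 5 largest differences in each direction among domains whose groups do not overlap, all of which reached 8000 bp through 1 group.

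The 5 largest differences with control higher, among domains whose groups did not overlap, were selected on their values. A domain of 8.29 kb in Chsy1 (chr7:66114301-66122593), a chondroitin sulfate synthase, was covered for 93.3% and 100% among control tumors against 62.0% and 21.4% among test tumors, a difference of -54.96 points. A domain of 10.8 kb, 25340 bp from the TSS of the chemokine receptor gene Ccr1 (chr9:123932577-123943352), was covered for 95.2% and 83.8% among control tumors against 38.7% and 30.5% among test tumors. The domain of Tnfrsf1b, which encodes TNF receptor type 2 and whose promoter is printed above, was 8.51 kb wide (chr4:145238392-145246902) and was covered for 91.1% and 99.2% among control tumors against 57.4% and 43.0% among test tumors. In these domains both test tumors were well below both control tumors, and the test tumors alone joined into at most 2.76 kb at Chsy1, 0.932 kb near Ccr1 and 3.68 kb at Tnfrsf1b. Near Fgfrl1 (chr5:108709045-108719509) test 2 stood apart from the other tumors, with 95.8% and 94.7% among control tumors, then 86.6% (test 1) and 17.4% (test 2). Near P3h2 (chr16:25944145-25957926), a collagen-modifying enzyme gene, the values were 95.7% and 84.5% against 60.7% and 35.5%.

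Ccr1 and Tnfrsf1b are expressed by myeloid and other immune cells, and the coverage around markers of such cells and of the other cell types is given beside them. Within 10 kb either side of the TSS of 15 macrophage and myeloid markers, peaks covered on average 17.1% (control 1), 15.0% (control 2), 14.6% (test 1) and 8.92% (test 2), with 1 marker at 0 in every tumor. For 14 T cell markers the averages were 2.26%, 2.28%, 1.24% and 0.318%, with 4 at 0. Markers of cells other than immune cells were also covered less in both test tumors. The averages were 4.85%, 4.01%, 1.96% and 1.06% for 14 endothelial markers, with 3 at 0 in every tumor, and 3.36%, 3.86%, 2.85% and 1.06% for 15 fibroblast markers, with 5 at 0. The groups overlapped for the myoepithelial, adipocyte and neuronal lists, and hepatocyte markers were at 4.75% and 4.39% among control tumors against 5.01% and 5.11% among test tumors. The part of any of these cell types in these domains was not tested.

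The 5 largest differences with test higher were selected in the same way. A domain of 9.12 kb in Homer1 (chr13:93302931-93312055), which encodes a postsynaptic scaffold protein, was covered for 34.9% and 20.7% among control tumors against 62.1% and 99.7% among test tumors, a difference of 53.04 points. The control tumors alone joined into at most 2.94 kb there, so the domain reached 8000 bp through the test tumors, chiefly test 2. The domain of Slmap, printed above, was 8.80 kb wide (chr14:26528279-26537079) and was covered for 55.7% and 49.2% among control tumors against 91.3% and 97.0% among test tumors. In Ano1 (chr7:144683929-144692226), a calcium-activated chloride channel gene, the values were 63.3% and 62.1% against 86.0% and 99.4%. Slmap and Ano1 were filled in by both test tumors. At Epb41l4a on chromosome 18 test 2 stood alone and covered 100% of 15.7 kb against 33.4%, 34.8% and 40.2% in control 1, control 2 and test 1, and the control tumors alone joined into at most 2.88 kb. Casz1, a zinc finger factor gene, had a domain of 9.80 kb (chr4:148900185-148909985) with 67.7% and 47.8% among control tumors, then 73.5% (test 1) and 100% (test 2).

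Other domains were set apart by 1 control tumor. A domain of 11.4 kb, 4941 bp from the TSS of the growth factor receptor gene Fgfr1, was covered for 100% in control 2 and for 51.6% in control 1, 39.1% in test 1 and 39.9% in test 2. A second one, 16906 bp from that TSS, was covered for 96.2% in control 2 and 46.1% to 49.0% in the others. A domain of 8.53 kb, 126265 bp from the TSS of Trps1, was covered for 99.0% by control 2, 45.6% by control 1, 48.7% by test 1 and 6.53% by test 2. These domains were chosen after their values were seen.

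The sequence of the domains was much like that of narrower shared regions. The median GC content was 48.7% in domains, 48.4% in regions 4 to 8 kb wide and 48.6% in shared regions under 4000 bp. CpG dinucleotides numbered 1.57, 1.44 and 1.504 per 100 bases at the median. In the central 300 bases, read on both strands, the AP-1 motif TGANTCA was found in 8.63% of domains, 10.2% of regions 4 to 8 kb wide and 10.9% of those under 4000 bp. The STAT motif TTCNNNGAA was found in 9.31%, 9.003% and 9.60%, the AP-2 motif GCCNNNGGC in 9.98%, 10.8% and 15.1%, and the GATA motif AGATAA in 12.4%, 12.1% and 10.2%. The longer ETS motif ACCGGAAG was found in 0.677%, 0.312% and 1.34%, and the grainyhead motif AACCGGTT in 0.169%, 0.104% and 0.278%. A match describes letters and not a bound site.

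Promoters inside domains were set against all autosomal promoters, acetylated or not, and not against those in narrower shared regions. Whether acetylated promoters outside domains have the same features was not tested. The 449 RefSeq promoters with a TSS in a domain (347 genes) had 18.2 CpG dinucleotides in 300 bases on average, against 12.6 in all 31396 autosomal promoters. The AP-2 motif, itself rich in G and C, was found in 26.5% of them against 16.7% of all promoters, and the GATA motif in 5.34% against 11.2%. AP-1 was found in 8.02% against 7.84%, STAT in 6.24% against 8.35%, ETS in 0.891% against 2.33% and grainyhead in 0.223% against 0.150%. These shares were not tested, and width, CpG content and motif matches are not independent of each other.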

How the data were processed

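H3K27ac peaks of 4 mouse tumors were analysed, and their 4 input libraries were not used here. The authors mapped reads to mm10 by BWA and ran MACS2 separately for each tumor against its own input. The deposited lists give the start and end of each interval in base pairs, the names of the joined peaks and no other measurement. According to their names they had been cleaned, by a method not given in the sources used here, and merged within a short distance. Read depth and peak height are therefore unknown, and a more deeply sequenced tumor can have more and wider intervals.

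Intervals on the 19 autosomes were joined into union regions, and domains were those at least 8000 bp wide with at least 1 bp of peak in every tumor. Coverage was the percent of a domain's bases inside a tumor's intervals. Gene positions came from GENCODE release M21 (GRCm38, the assembly mm10 names), and a TSS was the 5′ end of the gene record, which can differ from the start in use. Promoter and microRNA sequences came from RefSeq (GRCm38.p6), and 0 intervals ended past the end of a chromosome. The members and gene lists were chosen with earlier results of these data known, and 336 of 340 list symbols matched. Named were the 20 widest domains, the 5 with the largest group difference in each direction among those whose groups did not overlap, the 5 widest without a TSS, the 5 with the most TSSs, the 3 with the largest share covered in all tumors, up to 4 widest of each list in full, and the 3 on either side of 8000 bp. Groups of 2 tumors were compared by an exact permutation test (two-sided). Its p-value is the share of group assignments of these tumors that give a difference at least as large as the one observed. The interval functions were tested on simulated data. Python 3.11.15 with numpy 2.4.6 was used. Alternatives changed the width, the overlap, the joining distance, the intervals used, the TSS definition and the tumors included.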

Additional observations from a re-analysis of the deposited data

How the results depend on the processing

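The number of domains followed the settings that define them. With widths of at least 5000 and 12000 bp there were 2008 and 189 domains, holding the TSSs of 806 and 97 protein-coding genes. Control was higher in 264 (13.15%) and 25 (13.23%) of these domains. Test was higher in 300 (14.94%) and 26 (13.76%). Joining intervals within 1000 bp gave 1492 domains and 729 genes, with control higher in 221 (14.81%) and test higher in 194 (13%). Over all shared regions of the main setting the shares were 13.3% and 19.1%, so these counts mainly followed the number of domains. Of the 591 domains of the main setting, 46 with control higher and 33 with test higher did not overlap and differed by at least 10 points. Over all shared regions 11.5% and 15.9% did so. Asking for 50% coverage in every tumor, dropping intervals under 1000 bp, or keeping as many of the widest intervals per tumor as the shortest list holds kept the counts of domains, of genes and of both directions within 1.5 times. Counting any transcript start gave 372 genes.

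Leaving out each tumor in turn gave 509 to 556 domains and 220 to 255 genes. Control higher then ranged from 107 to 292 domains (19.81% to 57.37%) and test higher from 105 to 246 (18.88% to 45.56%). Both were above the values with 4 tumors, because a lone tumor in a group makes separation easier. The coverage difference ranged from -8.23 to 2.46 points, and was 0.362 without control 1 and 2.46 without test 2. The ratio of wide intervals ranged from 0.749 to 1.13, with 1.12 without control 1 and 1.13 without test 2. Under the other alternatives the coverage difference remained negative, from -3.35 to -1.51 points, and the ratio was 0.994 and 0.858 at 5000 and 12000 bp. No paired analysis was possible because the labels carry no replicate numbers. Depth is unknown, so a domain that is broken in 1 tumor cannot be told apart from one sampled less deeply.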

Other observations

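On the X chromosome, which the rule left out, 1 of 1958 union regions was at least 8000 bp wide and shared by all 4 tumors. It was 8.08 kb wide (chrX:139806626-139814703), had the TSS of the tight junction gene Cldn2 as the nearest, and was covered for 95.3% (control 1), 86.4% (control 2), 92.3% (test 1) and 79.6% (test 2). Domains were unevenly spread over the autosomes, from 1.65 per 100 protein-coding genes on chromosome 9 to 4.17 on chromosome 19. Long noncoding RNA genes had a TSS in 115 domains, 130 of the 9426 such genes on autosomes. Of 62 domains at least 16000 bp wide, 10 had both control tumors above both test tumors and 3 the reverse. Of 189 at least 12000 bp wide the counts were 25 (13.2%) and 26 (13.8%). Over all shared regions these shares were 13.3% and 19.1%. These counts were made after the values were seen and were not tested.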
